A study of Mus musculus with 6 samples.

Results

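CTCF-bound sites were examined in 3 windows of the mouse genome (build mm9) that hold Kit, Gata2 and Myc. Regions were taken by position alone, though the windows were chosen with earlier results of these data known. The Kit window was chromosome 5 from 75.7 to 76.3 Mb (gene at about 75.97 to 76.05 Mb). The Gata2 window was chromosome 6 from 87.9 to 88.4 Mb (gene at about 88.14 to 88.16 Mb). The Myc window was chromosome 15 from 61.5 to 62.3 Mb (gene at about 61.82 Mb). The windows held 39 of the 48367 CTCF regions of the series, 10 around Kit, 18 around Gata2 and 11 around Myc. A region is a connected set of peaks from the 3 lists that overlap by at least 1 bp. The gene positions are given to the nearest 10 kb, so a site within a few kilobases of a gene end cannot be placed on either side of it, and no exon or intron can be assigned.

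The cells were G1E-ER4, a mouse erythroblast line in which GATA1 is absent and is replaced by a GATA1 fused to the estrogen receptor. All of the libraries used came from cells given 100 nM estradiol for 24 hours, which turns the fusion protein on, so no library of cells without active GATA1 was compared. The 3 ChIP libraries made with a CTCF antibody came from wild-type G1E-ER4 cells (1 library) and from the sub-lines D_Brd2KO and C8_Brd2KO (clone D and clone C8, 1 library each), in which CRISPR/Cas9 editing left no detectable BRD2. Each BRD2-null line is a single clone, and 3 input libraries were not analysed here.

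GATA1, the master transcription factor of red cell development, switches off a set of progenitor genes as erythroblasts mature. Kit encodes the receptor for stem cell factor, which keeps progenitors alive and dividing. Gata2 encodes the GATA factor that GATA1 displaces from shared sites during maturation, and Myc encodes a transcription factor that drives cell growth and division. CTCF is a DNA-binding zinc finger protein at which cohesin halts, and its sites form loop anchors and insulators that limit which enhancers reach a promoter. BRD2 belongs to the BET family of proteins that bind acetylated histones. In this study the question was whether CTCF occupancy differs when BRD2 is missing.

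The promoters of the genes are shown because called regions lay at or near the ends of both genes in some libraries. They are RefSeq sequences (GRCm38.p6, plus strand, 300 bases that span the start), and 2 of the 3 genes matched the table. Their coordinates cannot be set against the mm9 peak positions. Capitals mark the core of the CTCF motif, searched on both strands as CC, any 3 bases, AG, any 2 bases, GGC.
Kit, chr5:75574737-75575036: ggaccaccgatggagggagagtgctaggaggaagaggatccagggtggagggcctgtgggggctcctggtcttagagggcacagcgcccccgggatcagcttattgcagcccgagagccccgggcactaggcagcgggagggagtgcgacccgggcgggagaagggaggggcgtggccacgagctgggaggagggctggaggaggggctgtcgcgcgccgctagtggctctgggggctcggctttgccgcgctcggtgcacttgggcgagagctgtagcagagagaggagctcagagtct
Gata2, first start, chr6:88193641-88193940: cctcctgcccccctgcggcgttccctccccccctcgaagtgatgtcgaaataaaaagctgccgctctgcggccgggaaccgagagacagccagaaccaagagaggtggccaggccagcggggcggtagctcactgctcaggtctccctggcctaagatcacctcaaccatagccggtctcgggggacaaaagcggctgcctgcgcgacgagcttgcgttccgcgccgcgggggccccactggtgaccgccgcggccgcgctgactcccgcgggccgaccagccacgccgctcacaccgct
Gata2, second start, chr6:88198414-88198713: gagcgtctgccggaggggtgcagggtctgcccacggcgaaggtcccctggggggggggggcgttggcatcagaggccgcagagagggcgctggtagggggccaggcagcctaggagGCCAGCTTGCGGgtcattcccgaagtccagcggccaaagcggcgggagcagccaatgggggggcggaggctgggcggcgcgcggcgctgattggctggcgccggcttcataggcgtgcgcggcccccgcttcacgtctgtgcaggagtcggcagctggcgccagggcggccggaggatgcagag
The core letters were found once, in the promoter of the second Gata2 start, on the reverse strand. They occur in 8.61% of the 32851 RefSeq promoters of the same length (300 bases). A match describes the letters only, and no match says only that these letters are not in this window. The GATA motif, searched as AGATAA and TGATAA on both strands, was found in none of the 3 promoters and in 18.6% of all promoters. G and C made up 69.0% of the Kit promoter and 69.3% and 73.7% of the Gata2 promoters, against a median of 52.7% over all promoters.

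CTCF sites were common near Gata2, at an ordinary density around Kit and sparse around Myc. The Gata2 window had 32.0 wild-type peaks per Mb, against 14.9 per Mb over chromosome 6. The Kit window had 15.0 per Mb against 17.7 over chromosome 5, and the Myc window 7.50 per Mb against 15.3 over chromosome 15. The clones gave the same order: clone D had 24.0, 15.0 and 5.00 peaks per Mb and clone C8 22.0, 15.0 and 8.75 around Gata2, Kit and Myc. In all, the windows held 31 peaks of wild type, 25 of clone D and 27 of clone C8.

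The sites also differed in strength between the genes. Strength is given as the authors' value for each peak, read here as a fold enrichment, and as its rank in the list. Rank 1 is the strongest, and the enrichment is a ratio used only to describe and rank peaks within 1 list. The lists hold 40271 peaks in wild type, 29769 in clone D and 32308 in clone C8. A rank, or a place in the upper or lower 50%, therefore describes a peak within its own list only. Median enrichment in wild type was 37.95 around Kit, 19.84 around Gata2 and 16.37 around Myc, against 22.68 in the whole list. In clone D the medians were 18.94, 14.31 and 11.52 (whole list 17.35), and in clone C8 29.81, 19.54 and 15.4 (whole list 21.53). Kit was thus the highest and Myc the lowest in each of the 3 lists. In wild type, 7 of 9 Kit peaks, 8 of 16 Gata2 peaks and 1 of 6 Myc peaks were in the upper 50% of the list.

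**Figure D1:**
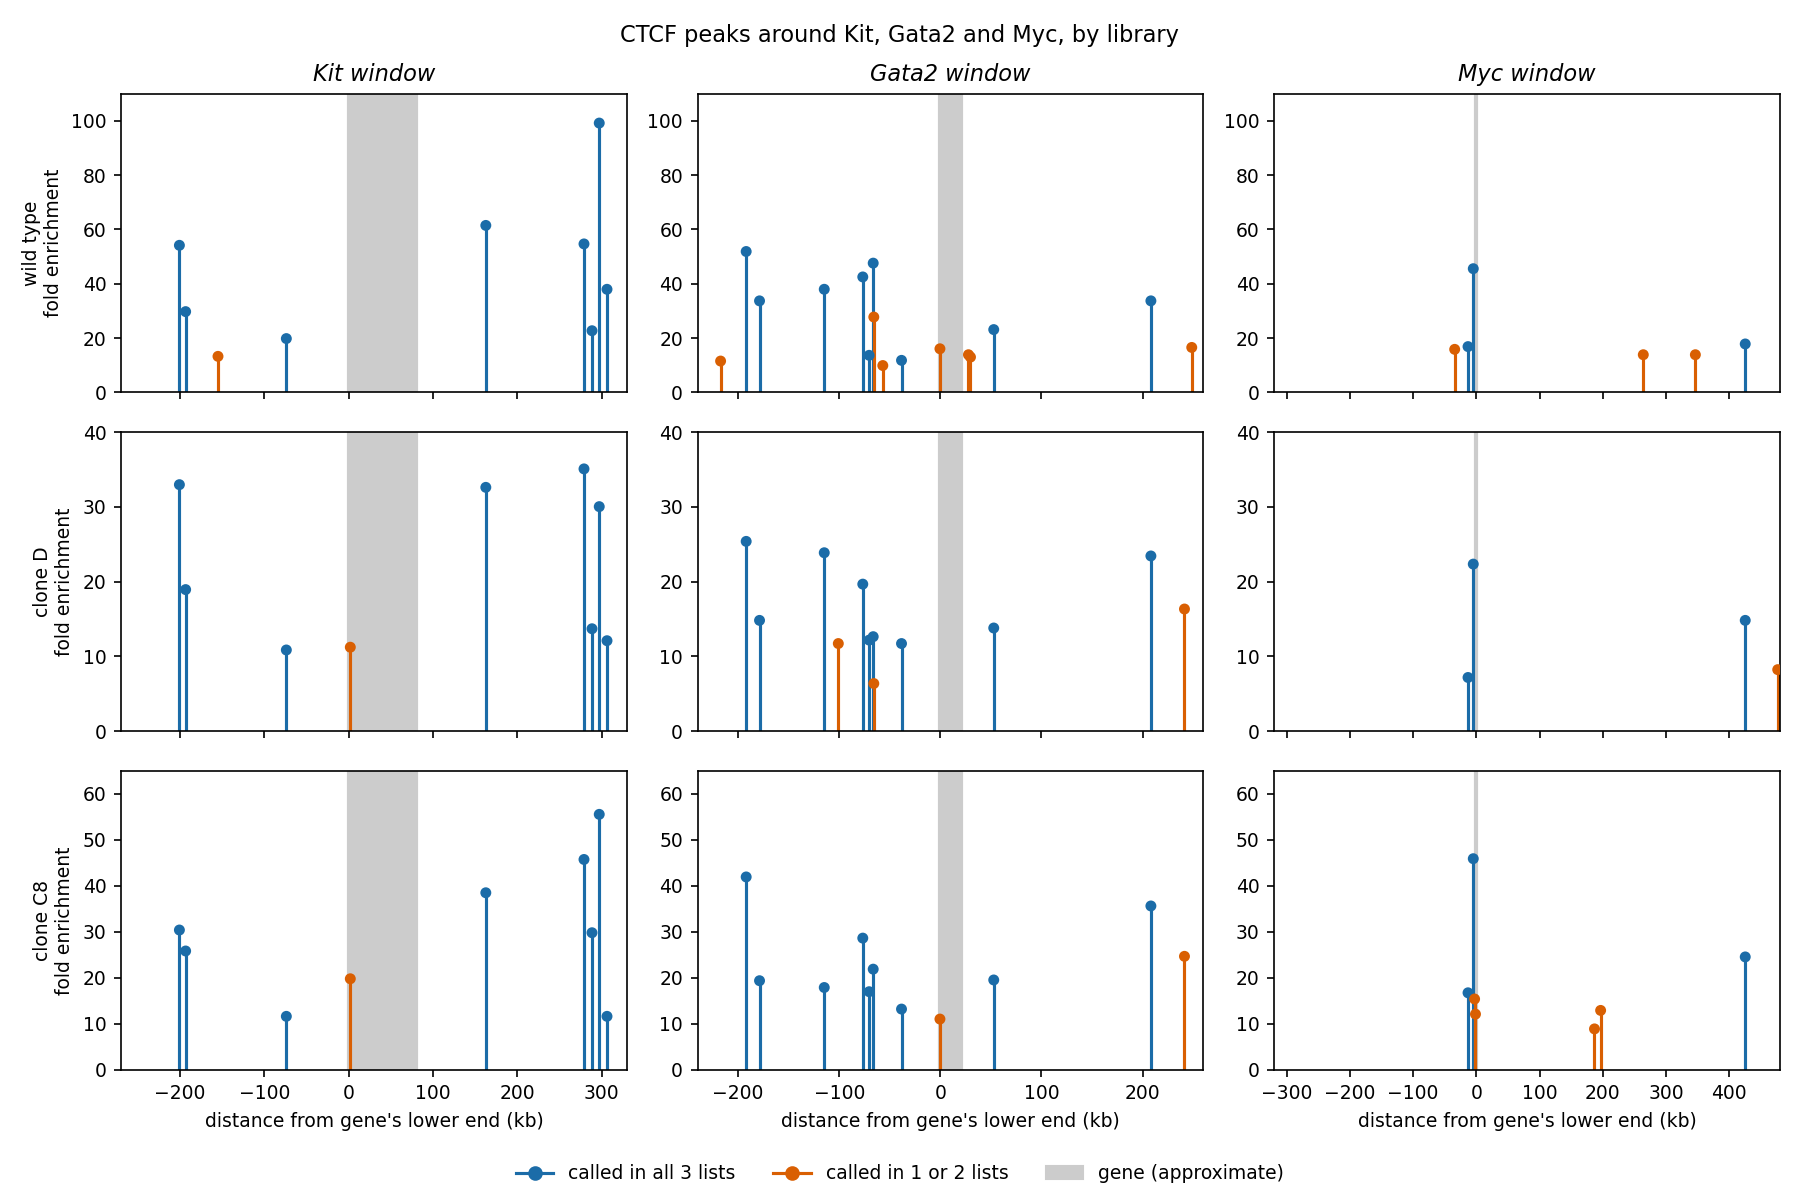
Fold enrichment of each CTCF peak (vertical axis, a separate scale for each library) against its distance in kb from the lower end of the gene, for the Kit, Gata2 and Myc windows in wild type, clone D and clone C8. Blue peaks were called in all 3 lists and orange peaks in 1 or 2; the Kit gene has no wild-type peak within it, and Myc has 1 strong site close by.

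Kit lay in a wide stretch without wild-type CTCF peaks, bounded by a weak site upstream and a strong site downstream. The distance from the nearest wild-type peak below the gene to the nearest above it was 236.2 kb. Of the 40250 gaps between neighbouring wild-type peaks, 5.88% were at least as long (median 24.5 kb). A gap taken because it holds a given gene tends to be longer than one drawn from all gaps. The share therefore does not show that this stretch is unusual. The flanking peaks were 236.1 kb apart in clone D and 236.2 kb apart in clone C8. Kit is read from lower to higher coordinates in RefSeq, so lower positions are upstream of it. The upstream flank, 73.8 kb from the gene (chr5:75895758-75896163), had an enrichment of 19.82 in wild type (rank 22021 of 40271), 10.86 in clone D (rank 22501 of 29769) and 11.63 in clone C8 (rank 26294 of 32308). It was in the lower 50% of all 3 lists. The downstream flank, 82.2 kb from the gene (chr5:76132221-76133088), had an enrichment of 61.46 in wild type (rank 3867), 32.62 in clone D (rank 4837) and 38.5 in clone C8 (rank 6400). It was among the stronger sites of each list.

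Both BRD2-null clones had a peak near the start of Kit that was not called in wild type. The region (chr5:75971614-75972093) lies 1.6 to 2.1 kb into the gene as placed here, which is within the 10 kb step of the gene's position. The clone D peak had an enrichment of 11.23, rank 22178 and a −log10 p of 7.886. The clone C8 peak had an enrichment of 19.8, rank 17480 and a −log10 p of 14.498. Both values are in the lower 50% of their lists, and the nearest wild-type peak was 75.5 kb away. Of the 39 regions, 2 were held by both clone lists but not by the wild-type list (5.13%), against 4.48% of all regions. Ordered by the smaller −log10 p of the clones, the Kit region was number 760 of the 2167 such regions. At a −log10 p of at least 10 in each list, clone D no longer held it and it was called in clone C8 only. A peak that is not in a list was not called, which does not show an unbound site, and the depth of the libraries is unknown.

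The strongest wild-type site of the 3 windows stood at the far side of the Kit window. It lay 217.0 kb above the gene (chr5:76266970-76267702), with an enrichment of 99.12 in wild type (rank 423), 30.04 in clone D (rank 6036) and 55.55 in clone C8 (rank 1826). It belonged to a group of 4 sites within 27.9 kb, all called in the 3 lists, on the side of Kdr, the next protein-coding gene, which encodes a receptor for VEGF. The first of the group, 198.9 kb above the gene (chr5:76248897-76249513), had enrichments of 54.65, 35.09 and 45.74 in wild type, clone D and clone C8 (ranks 5552, 3924 and 3913). The site at 208.4 kb (chr5:76258417-76259026) had 22.71, 13.7 and 29.81 (ranks 20134, 18915 and 10484). The fourth, at 226.2 kb (chr5:76276215-76276780), had 37.95, 12.1 and 11.63 (ranks 11355, 21019 and 26294), so it was in the upper 50% of the wild-type list and the lower 50% of both clone lists.

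Upstream, on the side of Pdgfra, which encodes another receptor tyrosine kinase, the window held 3 more regions. A pair called in all lists lay 200.6 kb and 193.2 kb below Kit. The farther one (chr5:75768733-75769391) had enrichments of 54.14, 32.98 and 30.4 in wild type, clone D and clone C8 (ranks 5615, 4650 and 10226). The nearer one (chr5:75776228-75776786) had 29.74, 18.94 and 25.84 (ranks 15330, 13380 and 12875). The region 154.9 kb below the gene (chr5:75814758-75815132) was called in wild type only, with an enrichment of 13.28 and rank 32846.

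Gata2 had weak sites at its edges and stronger ones farther upstream. No peak of any list fell within the gene as placed here. Just below its lower end, 0.2 kb away (chr6:88139471-88139762), wild type had a peak with an enrichment of 16.07 (rank 26683) and clone C8 one of 11.04 (rank 27887), and the nearest clone D peak was 37.7 kb away. Above the gene, at 7.6 kb (chr6:88167634-88168023) and 9.6 kb (chr6:88169627-88169958), peaks were called in wild type only, with enrichments of 13.88 and 13.01 (ranks 30104 and 33194). These 3 regions nearest to the gene were all in the lower 50% of the lists that held them. The nearest sites called in all 3 lists were 38.2 kb below and 32.6 kb above the gene, a gap of 90.7 kb. Of the gaps between neighbouring regions of that kind, 22.7% were at least as long, with the same limit as for the Kit gap.

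The sites that flank Gata2 in all 3 lists were of low to middling strength. The lower flank (chr6:88101304-88101834) had enrichments of 11.81, 11.72 and 13.21 in wild type, clone D and clone C8 (ranks 36264, 21350 and 24227). The upper flank (chr6:88192554-88193094) had 23.13, 13.8 and 19.54 (ranks 19970, 18784 and 17575). Dnajb8, which encodes a chaperone of the DNAJ family, and Eefsec, the selenocysteine elongation factor, follow Gata2 on this side in RefSeq's gene order.

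A cluster of 4 regions within 11.4 kb lay 76.3 to 65.6 kb upstream of Gata2, on the side of Rpn1, which encodes a subunit of the oligosaccharyltransferase. Gata2 is known to be controlled in blood progenitors by a distal upstream enhancer and by one in an intron, and none of the regions was assigned to either here. The outer site (chr6:88062977-88063691) had enrichments of 42.5, 19.67 and 28.64 in wild type, clone D and clone C8 (ranks 9568, 12935 and 11188). The next, 70.2 kb from the gene (chr6:88069294-88069832), had 13.66, 12.18 and 16.99 (ranks 32486, 20954 and 19831). The site at 66.1 kb (chr6:88073349-88073904) had 47.58 in wild type (rank 7559), 12.64 in clone D (rank 20167) and 21.89 in clone C8 (rank 15968). It was the second strongest wild-type site of the window and was in the lower 50% of the clone D list. Only 72 bp from it, at 65.6 kb (chr6:88073977-88074409), a peak was called in wild type with an enrichment of 27.75 (rank 16417, −log10 p of 13.372) and in clone D with 6.37 (rank 29464), and not in clone C8. The nearest clone C8 peak, that of the neighbouring site, was 0.1 kb away.

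The sites farther from Gata2 that were called in all 3 lists were stronger in wild type than those called in wild type only. The strongest wild-type site of the window, 191.6 kb upstream (chr6:87947680-87948363), had enrichments of 51.86, 25.39 and 41.94 in wild type, clone D and clone C8 (ranks 6201, 8703 and 5103). The site at 178.5 kb (chr6:87960912-87961481) had 33.7, 14.82 and 19.38 (ranks 13327, 17450 and 17662), and the site at 114.5 kb (chr6:88024921-88025517) had 37.96, 23.87 and 17.9 (ranks 11353, 9705 and 19402). Downstream, at 188.0 kb (chr6:88347952-88348524), the enrichments were 33.7, 23.44 and 35.63 (ranks 13327, 9926 and 7606). Clone D alone had a peak at 100.7 kb upstream (chr6:88038866-88039266), with an enrichment of 11.72 (rank 21350, −log10 p of 10.626). Wild type alone had peaks 217.2 kb and 56.7 kb upstream and 228.3 kb downstream, with enrichments of 11.55, 9.9 and 16.56 (ranks 36628, 39159 and 26511).

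A second region held by both clone lists but not by the wild-type list stood 221.1 kb downstream of Gata2 (chr6:88381143-88381691). The clone D peak there had an enrichment of 16.34, rank 16107 and a −log10 p of 17.068. The clone C8 peak had an enrichment of 24.68, rank 13688 and a −log10 p of 22.738. By the smaller −log10 p of the clones it was number 43 of the 2167 regions of this kind, so it was among the stronger of them. The nearest wild-type peak, itself called in wild type only, was 6.6 kb away.

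Myc had 1 strong CTCF site at or near its position and a long stretch above it with few and weak peaks. A CTCF site just upstream of the Myc promoter is known from other mammalian cells. The strong site here lay 4.7 kb below the gene's position (chr15:61814770-61815335), with an enrichment of 45.54 in wild type (rank 8558 of 40271), 22.35 in clone D (rank 10661 of 29769) and 45.91 in clone C8 (rank 3875 of 32308). It was in the upper 50% of each list, and it was the only Myc site of wild type and of clone D that was. Its −log10 p was 46.539, 32.507 and 45.759 in wild type, clone D and clone C8. A weaker neighbour 13.0 kb below the gene (chr15:61806538-61806990) had enrichments of 16.87, 7.18 and 16.75 (ranks 26314, 28812 and 20597), all in the lower 50% of the lists.

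Clone C8 had 2 more peaks between the strong site and the approximate Myc position that were not called in wild type or clone D. These peaks and the strong site lie within the 10 kb step of that position. Whether they fall in the gene or beside it is therefore not known. At 2.7 kb (chr15:61816994-61817336) the enrichment was 15.4 with a −log10 p of 10.093 (rank 22120), and at 1.2 kb (chr15:61818496-61818800) it was 12.11 with a −log10 p of 6.277 (rank 25923). Together with the strong site and its weaker neighbour they made up 12.3 kb with 4 regions called in clone C8, 2 of which wild type and clone D also held. The 2 clones therefore differed here, and the regions cannot be read as shared by the BRD2-null lines.

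Above Myc, the next site called in all 3 lists was 425.1 kb away. The gap of 429.8 kb between it and the strong site was matched or passed by 4.84% of the 23913 gaps between neighbouring regions called in all lists. As for Kit, this share does not show that the stretch is unusual, because the gap was taken for the gene it holds. Pvt1, a long noncoding RNA gene known for enhancer elements that contact Myc, follows Myc on this side in RefSeq's gene order. The site at 425.1 kb (chr15:62245136-62245732) had enrichments of 17.84, 14.82 and 24.55 in wild type, clone D and clone C8 (ranks 24132, 17450 and 13757). Within the gap, clone C8 alone had peaks at 186.7 kb and 196.5 kb with enrichments of 8.9 and 12.92 (ranks 31218 and 24369). Wild type alone had peaks at 263.9 kb and 346.3 kb, both with an enrichment of 13.88 (rank 30104). Clone D had no peak between the strong site and the one at 425.1 kb, a distance of 430.0 kb. At the edge of the window, 476.6 kb above Myc, clone D alone had a peak with an enrichment of 8.23 (rank 26997). Below Myc, wild type alone had a peak at 34.1 kb with an enrichment of 15.86 (rank 26877), and no list had a peak in the rest of the window on that side.

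**Figure D2:**
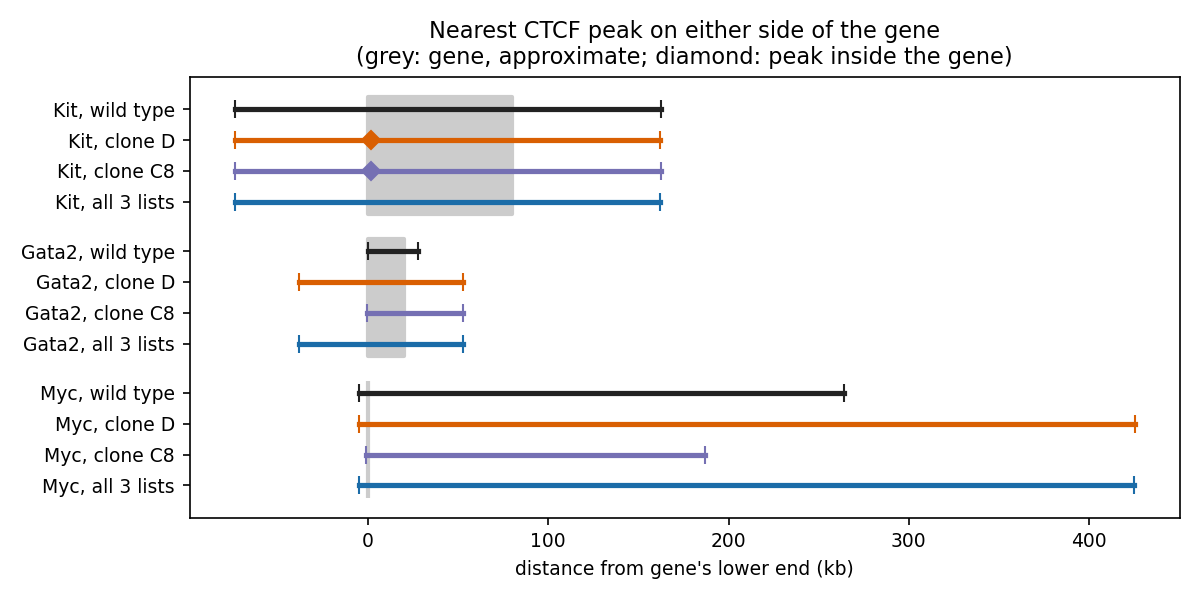
Distance in kb from the lower end of each gene to the nearest CTCF peak below and above it (ends of each line), in each list and among regions called in all 3 lists. A diamond marks a peak inside the gene as placed here. The lines for Kit have nearly the same ends in every list, while those for Myc run from 187.9 kb in clone C8 to 430.0 kb in clone D.

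Calls in the 3 windows were shared between the lists about as often as in the whole series. Of the 39 regions, 20 (51.3%, exact 95% interval 34.8 to 67.6) were called in all 3 lists, against 49.5% of all regions. Those called in wild type only were 9 (23.1%, 11.1 to 39.3), against 26.2% of all regions. Both clones overlapped 20 of the 31 wild-type peaks (64.5%, 45.4 to 80.8), against 59.8% of the whole wild-type list. Each clone overlapped 21 of the 31 (67.7%), a mean of 67.7% ± 0.0 (SD, n = 2). The overlapped peaks were not all the same. Clone C8 lacked the one 65.6 kb below Gata2, and clone D lacked the one 0.2 kb below it. The whole-list values lie within these intervals, which reflect counting alone. Since wild type had 1 library, the genotypes could not be compared by a test.

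The share of regions called in all lists was highest around Kit and lowest around Myc. All lists held 8 of the 10 Kit regions (80.0%, 44.4 to 97.5), 9 of the 18 Gata2 regions (50.0%, 26.0 to 74.0) and 3 of the 11 Myc regions (27.3%, 6.02 to 61.0). The intervals of the 3 genes overlap, and each holds the 49.5% of all regions. A second count took wild-type peaks only, so it leaves out regions that wild type did not hold and differs from the shares above. Each wild-type peak was given the share of its strength class found in both clones (10 classes of equal size by enrichment). On this basis 7.36 of 9 Kit peaks, 8.69 of 16 Gata2 peaks and 2.29 of 6 Myc peaks were expected. The numbers seen were 8, 9 and 3. Whether strength sets the order of the genes was not tested. Over the 3 windows 18.3 were expected and 20 seen.

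**Figure D3:**
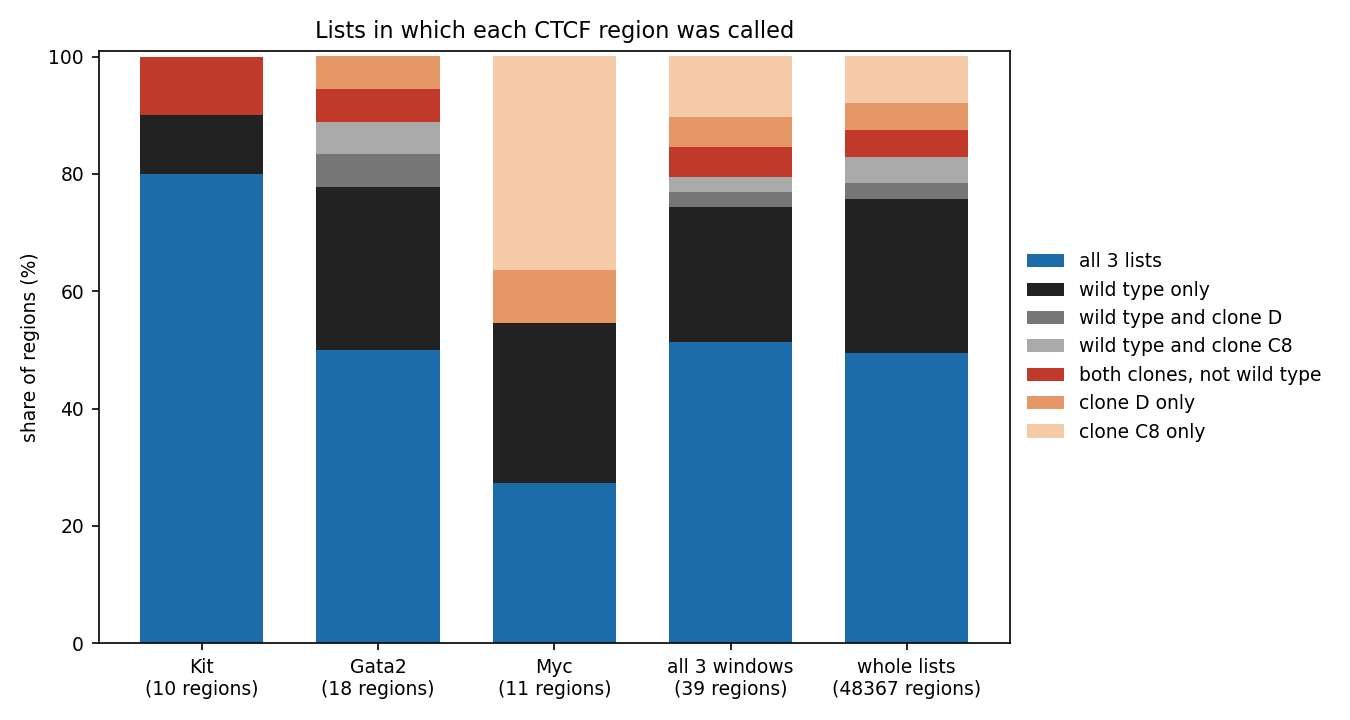
Share of CTCF regions (%) by the lists in which they were called, for each window, the 3 windows together and the whole lists. The bar for the 3 windows has 51.3% of regions in all lists, close to 49.5% in the whole lists, and Kit is highest (80.0%) and Myc lowest (27.3%).

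Regions that were not called in all 3 lists were mostly weak. The 9 called in wild type only had enrichments of 9.9 to 16.56 and ranks of 26511 to 39159, and their −log10 p ran from 5.384 to 8.05, close to the lowest value of 5 in the lists. The 6 called in 1 clone only had enrichments of 8.23 to 15.4. Of the 19 regions missing from at least 1 list, 5 had a −log10 p of at least 10 in a list that held them (26.3%, against 16.5% of all such regions). These were the region near the start of Kit, the one 221.1 kb above Gata2 and the one 100.7 kb below it in clone D. The others were the one 65.6 kb below Gata2 in wild type and clone D, and the one 2.7 kb below the Myc position in clone C8. None of the 5 was called in wild type only. The authors' value read as a false discovery rate was at most 0.05 for 16 of 31 wild-type peaks of the windows. It was so for 25 of 25 peaks of clone D and 24 of 27 of clone C8. In the whole lists this rate was at most 0.05 for 52.7%, 94.8% and 85.4%. The same rate went with different −log10 p values in the lists, so these shares do not compare peak strength between libraries.

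Ranks of the shared sites were compared over one common set. The 23933 regions called in all 3 lists were ordered by enrichment within each library and given a percentile, 100 being the strongest. A site counted as lower or higher when both clones differed from wild type by at least 10 percentile points in the same direction. Of the 20 shared sites in the windows, 3 were lower and 3 higher, against 17.2% and 18.2% of all shared regions, and 14 were neither. These shares are near the background. The clones themselves differed by at least 10 points at 10 of the 20 sites (50.0%, against 56.6% of all shared regions), with a median difference of 10.7 points against 12.2.

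The lower sites were 1 at Kit and 2 at Gata2. The site 226.2 kb above Kit was at percentile 52.8 in wild type, 17.5 in clone D and 5.7 in clone C8. The site 66.1 kb upstream of Gata2 was at 68.0, 20.0 and 34.8, and the site 178.5 kb upstream at 44.1, 28.7 and 27.8. The first 2 of these differed by more than 20 points in both clones. The 6 sites that were lower or higher met the rule also when −log10 p replaced enrichment for the ranks.

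The higher sites were 2 at Gata2 and 1 at Myc. The site 70.2 kb upstream of Gata2 was at percentile 2.4 in wild type, 17.7 in clone D and 21.4 in clone C8. The site 188.0 kb downstream was at 44.1, 58.7 and 68.3. The site 425.1 kb above Myc was at 10.7, 28.7 and 42.7. In the cluster upstream of Gata2, a site that was higher and a site that was lower in the clones were therefore 3.5 kb apart. Among all shared regions, 29.0% of the 25% that ranked lowest in wild type were higher in both clones and 3.14% were lower. Of the 25% that ranked highest, 3.18% were higher and 24.8% were lower. The percentile scale is bounded, so sites ranked lowest in wild type had little room to be lower, and those ranked highest to be higher. The site 70.2 kb upstream of Gata2, at 2.4 in wild type, could not have met the rule for lower. The wild-type percentile also enters each difference and rests on 1 library. A link of direction with wild-type rank is therefore partly built into the rule. Whether it reflects more than that was not tested.

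The strong sites nearest to Kit and Myc were in neither class. The site 82.2 kb above Kit was at percentile 83.5 in wild type, 79.8 in clone D and 73.3 in clone C8. The site 4.7 kb below the Myc position was at 64.2, 55.6 and 83.8, lower than wild type in one clone and higher in the other. The site 217.0 kb above Kit, the strongest in wild type, was at 98.2, 74.8 and 92.1, so clone D stood apart from the other libraries there. The site 114.5 kb upstream of Gata2 had the largest difference between the clones among the 20 sites, 36.6 points, at 53.0, 59.6 and 22.9.

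**Figure D4:**
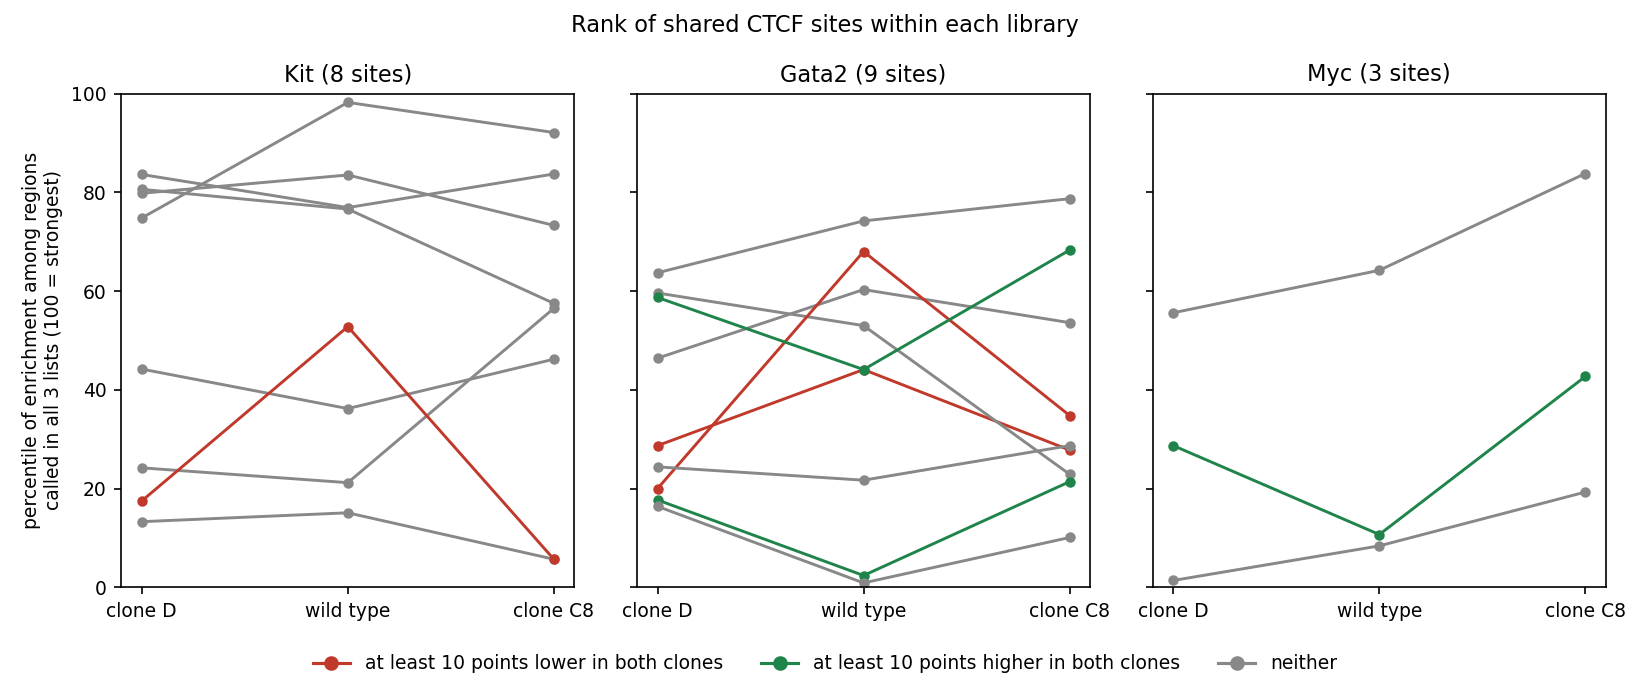
Percentile of enrichment (100 = strongest) of each of the 20 CTCF sites called in all 3 lists, in clone D, wild type and clone C8, by window; each line is 1 site. Red lines (3) are at least 10 points lower and green lines (3) at least 10 points higher in both clones, and the remaining 14 are grey.

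The 3 peaks of a shared site are joined by overlap, so closeness of their centres is partly built into the definition. The centres of the 3 peaks of a site were spread over a median of 88 bp in the windows, and over at most 167 bp, against a median of 67.5 bp over all shared regions. Shared sites of the windows had a median width of 571 bp when the 3 peaks were joined, and those of the whole series 584 bp.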

How the data were processed

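CTCF ChIP-seq peak lists of 3 libraries were used. Per the submitters' processing notes, bcl2fastq 1.8.4, Bowtie 1.0.0 and build mm9 were used; which caller made the peaks, and whether inputs entered, are points not given in the sources used here. For each library the authors deposited 1 list, with a fold enrichment (a ratio to a background that is not stated), a −log10 p and a false discovery rate in the q-value field. The fold enrichment and the false discovery rate were read as such from the broadPeak layout and the values. The lists give no read totals, so depth is unknown. Of the samples, 3 inputs were not analysed here.

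Regions were built from overlaps of at least 1 bp with Python 3.11.15, pandas 2.3.3, numpy 2.4.6 and SciPy 1.17.1. Distances are from the nearest edge of a region to the approximate gene position. Intervals are exact (Clopper-Pearson, 95%) and cover counting error only. No p-value is given, since wild type has 1 library. Overlaps were tested on simulated data: 2000 of 2000 simulated regions fell in the class they were made with, and 12 of 12 overlap counts on the real lists equalled those of bedtools 2.31.1.

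Every region of the windows is described. Full values were planned for the 3 strongest wild-type peaks per window, the regions in or next to the gene, regions not in all lists with a −log10 p of at least 10, and sites lower or higher in both clones. The windows, genes and rules were chosen with earlier results of these data known. Alternatives changed the overlap, the peaks kept, the window, the clones used, and the size and measure of the rank difference. Gene neighbours are RefSeq's order in GRCm38.p6, by name only, and no mm9 annotation was used here.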

Additional observations from a re-analysis of the deposited data

How the results depend on the processing

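Counts were compared by a factor of 1.5 and the share by its exact interval. Recomputation gave 54 values, 33 inside these limits and 21 outside. The count of regions in all 3 lists stayed at 14 to 21 under the 10 alternatives, counted over the remaining lists where a clone was left out. Counts of regions in wild type only (9 as reported) and in both clones alone (2), and the share of wild-type peaks overlapped by both (64.5%), changed as follows. With the weakest peaks dropped to keep 75% of each list, 4 regions were in both clones alone. With lists of equal length by enrichment the values were 2, 4 and 81.8%, and by −log10 p wild type alone had 2 and the share was 82.6%. Both times, the 4 regions included the sites 70.2 kb and 38.2 kb below Gata2. Wild type held these sites in its full list, at ranks 32486 and 36264, and the cut removed its peaks. At a −log10 p of at least 10, 1 region was in wild type only and the share was 87.5%. That region, 65.6 kb below Gata2, was not among the 9 as reported. Clone D held it in its full list, at a −log10 p of 5.776. A limit of 0.05 on the false discovery rate gave 0, 6 and 93.8%. These thresholds remove weak peaks, of which wild type held more. The limit on the false discovery rate was also stricter in wild type. The site 13.0 kb below Myc had a rate of 0.1037 in wild type at a −log10 p of 9.146. In clone D it had 0.0496 at a −log10 p of 5.594. The 6 regions thus include sites that wild type held in its full list. Up to 200 kb from the genes, 5 regions were in wild type only and 1, the region near the start of Kit, in both clones alone. Leaving out clone C8, clone D had 4 regions that wild type lacked; leaving out clone D, clone C8 had 6.

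Sites lower and higher in both clones numbered 3 and 3 as reported. They were 5 and 6 at 5 percentile points, against 24.5% and 25.9% of all shared regions, and 2 and 0 at 20 points, against 8.18% and 8.61%. With 1 clone left out, 1 clone in place of 2 had to differ, and the background rose too. Leaving out clone D, 6 of 21 shared sites were lower and 7 higher, against 29.4% and 29.3% of all shared regions. Leaving out clone C8, 6 of 21 were lower and 4 higher, against 29.9% and 30.1%. No paired analysis was possible because wild type has 1 library and no test was made. Depth is unknown, so an absent weak peak may reflect too few reads.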
